A study of Mus musculus with 4 samples.

Results

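Chromatin of the tumors that grew in wild-type hosts held 1684 regions outside promoters that were open in both of those tumors and were called in neither tumor from Esm1 knockout hosts. They are called WT-only regions here. They were chosen by the measured presence and absence of peaks. Peaks that overlapped by 1 bp or more, in any library, were joined into a region, and a region was kept when it held a peak in neither KO library and in both WT libraries. It also had to lie on an autosome, more than 1 kb from every protein-coding transcription start, and outside a segment of chromosome 15 that holds Myc and the end of chromosome 13 around Esm1. The 1684 regions came from 103889 autosomal regions outside promoters and these segments (1.62%), and the whole series held 122166 merged regions. The mirror-image set, with a peak in both KO libraries and in neither WT library, held 1834 regions (1.77%) and is called KO-only. A further 34254 regions outside promoters held a peak in all 4 libraries. Since the peaks of these libraries defined the set, its absence from KO tumors is no finding, and none of the comparisons below is a test.

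The assay was ATAC-seq, in which a transposase cuts open chromatin and marks it with sequencing adapters. The KO group was 2 tumors from Esm1 knockout mice and the WT group was 2 tumors from wild-type mice, all of the C57BL/6 strain, after implantation of mG7080 cells into the brain. mG7080 is a murine glioblastoma line grown as spheres, and all 4 tumors share the lesions of that line. The knockout is one of the host, and the implanted line was the same in both groups. The labels give tumor tissue as the source, the methods speak of freshly isolated tumor cells, and the study's results speak of cells that were cultured as spheres from the tumors. The sources used here do not settle which material was sequenced. In such bulk material, fewer cells of a type and less accessible chromatin per cell cannot be told apart.

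Open chromatin away from promoters marks mostly enhancers, where sequence-specific factors gather and act on genes that may lie far along the chromosome. E-boxes are short sites for basic helix-loop-helix factors, among which OLIG2 and the NEUROD family set oligodendrocyte precursor and neuronal programmes. MEF2 factors drive muscle and activity-dependent neuronal genes, and CTCF is a zinc-finger protein that anchors chromatin loops and insulates neighbouring domains. Esm1 encodes Endocan, a proteoglycan that endothelial cells secrete.

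The libraries differed in depth. The peak lists held 82975 and 85418 peaks in KO replicates 1 and 2, and 63000 and 100088 in WT replicates 1 and 2. The genome background recovered from the deposited values was 6.03 and 6.71 read ends in the KO libraries and 4.41 and 6.85 read ends in the WT libraries, so WT replicate 1 was the shallowest. WT-only regions made up 2.68% of the list of WT replicate 1 and 1.68% of that of WT replicate 2. No library had a peak in the Esm1 gene or its promoter, so the peaks do not check the host genotype. Promoters of all 20 neuronal list genes had a peak in every library, whereas endothelial genes had a promoter peak for 4 and 7 of 22 genes in the KO libraries and 4 and 6 in the WT libraries. Of 20 microglial genes, 5 and 6 had one in the KO libraries and 4 and 7 in the WT libraries. Mature oligodendrocyte genes had 8 and 9 of 16 in the KO libraries and 14 and 8 in the WT libraries, and oligodendrocyte precursor genes 14 and 16 of 18 against 15 and 13.

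The sequences below are 101 bases around a peak summit, read from the plus strand of mm10 (GRCm38.p6, RefSeq). The summit is that of the WT peak with the higher rank in its own list. The first 5 are shown because they belong to the WT-only regions with the highest fold over background in both WT lists. In these 5 windows capitals mark every match to any of the 26 motifs searched, and a window without capitals holds none. In the later windows capitals mark the named motif alone.
near Rell1, chr5:64030788-64030888: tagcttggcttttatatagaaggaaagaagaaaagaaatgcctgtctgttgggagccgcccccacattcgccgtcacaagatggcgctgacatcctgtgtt
near 5730507C01Rik, chr12:18610007-18610107: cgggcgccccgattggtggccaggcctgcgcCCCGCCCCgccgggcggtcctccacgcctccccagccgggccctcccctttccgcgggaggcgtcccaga
near Podxl, chr6:31803370-31803470: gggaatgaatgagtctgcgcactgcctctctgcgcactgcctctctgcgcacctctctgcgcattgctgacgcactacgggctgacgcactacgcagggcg
near Syndig1, chr2:149675869-149675969: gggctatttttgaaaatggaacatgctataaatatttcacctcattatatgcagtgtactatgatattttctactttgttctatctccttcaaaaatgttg
near Gm6657, chr12:78153796-78153896: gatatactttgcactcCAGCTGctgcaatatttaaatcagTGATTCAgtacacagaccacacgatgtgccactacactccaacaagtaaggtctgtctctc

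The next 4 windows show the CTCF match, in capitals, in the strongest WT-only regions that hold it within 40 bp of the summit. It is a match of 12 positions on either strand.
in Kcnip1, chr11:33721418-33721518: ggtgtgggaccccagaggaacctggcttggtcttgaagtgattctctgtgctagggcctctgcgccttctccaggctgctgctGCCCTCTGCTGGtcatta
in Arhgap40, chr2:158550246-158550346: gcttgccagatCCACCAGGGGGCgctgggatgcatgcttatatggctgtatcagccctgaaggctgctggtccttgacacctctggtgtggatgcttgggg
near Serpina3n, chr12:104427106-104427206: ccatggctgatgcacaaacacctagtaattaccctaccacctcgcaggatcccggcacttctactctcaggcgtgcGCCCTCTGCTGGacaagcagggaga
near Erc2, chr14:27589780-27589880: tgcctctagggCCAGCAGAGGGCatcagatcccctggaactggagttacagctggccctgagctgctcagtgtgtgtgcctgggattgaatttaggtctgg

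These 4 windows show the MEF2 match, in capitals, in the strongest WT-only regions with a match this close to the summit. The motif is palindromic and AT-rich, with 10 positions.
in Pou2f1, chr1:165943488-165943588: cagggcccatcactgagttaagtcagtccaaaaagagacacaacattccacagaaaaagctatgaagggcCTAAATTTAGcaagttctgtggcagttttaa
near Copb1, chr7:114213720-114213820: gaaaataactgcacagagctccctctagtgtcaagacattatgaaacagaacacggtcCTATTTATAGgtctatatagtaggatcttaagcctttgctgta
near Eci2, chr13:35326803-35326903: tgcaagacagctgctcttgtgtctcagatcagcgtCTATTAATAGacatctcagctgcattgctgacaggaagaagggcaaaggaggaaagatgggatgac
in Zfp609, chr9:65795890-65795990: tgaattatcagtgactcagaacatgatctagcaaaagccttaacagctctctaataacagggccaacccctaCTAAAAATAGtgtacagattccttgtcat

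The CATATG E-box, in capitals in the next 3 windows, is shown because it was less frequent in WT-only regions than in the sets beside them.
in St8sia6, chr2:13738788-13738888: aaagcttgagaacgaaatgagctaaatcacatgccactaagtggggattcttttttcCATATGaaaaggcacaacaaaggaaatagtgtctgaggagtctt
near Fscb, chr12:64619801-64619901: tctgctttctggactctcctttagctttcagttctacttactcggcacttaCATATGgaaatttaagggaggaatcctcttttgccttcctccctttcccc
in Arhgap15, chr2:44113693-44113793: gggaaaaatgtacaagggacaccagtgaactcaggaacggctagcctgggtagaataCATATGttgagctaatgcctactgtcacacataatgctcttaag

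The CACCTG E-box (CAGGTG on the other strand) is in capitals in the last 3 windows, which are shown because this E-box was more frequent in WT-only regions than in the sets beside them.
in Uhrf2, chr19:30066016-30066116: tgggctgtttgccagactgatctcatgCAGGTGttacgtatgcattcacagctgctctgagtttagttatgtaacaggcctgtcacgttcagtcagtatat
in Pde4b, chr4:102545315-102545415: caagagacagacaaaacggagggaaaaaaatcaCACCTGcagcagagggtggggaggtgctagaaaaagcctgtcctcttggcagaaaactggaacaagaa
near Fam49a, chr12:12147219-12147319: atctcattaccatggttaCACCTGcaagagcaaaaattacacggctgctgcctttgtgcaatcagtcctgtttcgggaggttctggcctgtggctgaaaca

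WT-only regions were mostly low peaks. Height is given as the recovered number of read ends at the summit and as a multiple of the genome background of its library. In WT replicate 1 the height ranged from 13 to 53 read ends with a median of 19, or 4.30 times background. In WT replicate 2 it ranged from 16 to 66 with a median of 25, or 3.65 times background. The KO libraries have no value there by the rule, and their lowest called heights anywhere were 15 and 16 read ends, or 2.49 and 2.38 times background. In regions held by all 4 libraries the median height was 5.97 and 5.66 times background in the KO libraries and 5.89 and 6.43 times in the WT libraries. KO-only regions were of the same low order, with medians of 3.65 and 3.72 times background in KO replicates 1 and 2. Both WT heights reached 2 times the lowest multiple called in KO replicate 1 in 177 WT-only regions (10.5%), and both were at least 5 times background in 160 (9.50%). Both peaks stood above the middle of their own list, ranked by fold over local background, in 57 regions (3.38%). The height multiple was larger in WT replicate 1, the shallower library, in 1267 regions (75.2%). The lowest multiple called anywhere was also larger there, 2.94 against 2.34 in WT replicate 2. In regions held by all 4 libraries the medians had the reverse order (5.89 and 6.43).

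**Figure D1:**
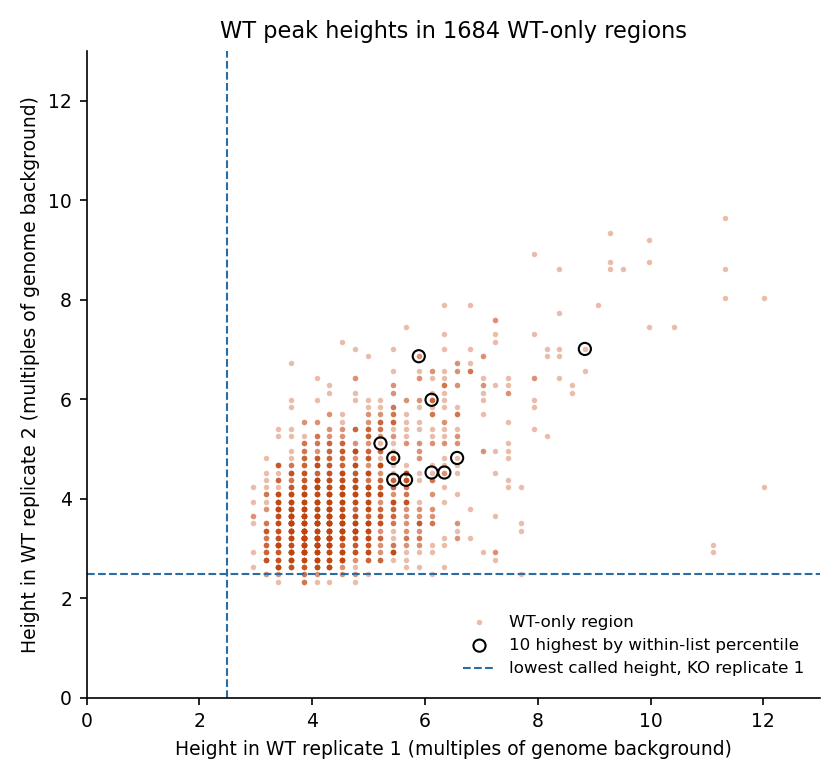
Height of the WT peak in each of 1684 WT-only regions, as multiples of the genome background, with WT replicate 1 on the x axis and WT replicate 2 on the y axis. Dashed lines mark the lowest multiple called in KO replicate 1 (2.49), most points lie within a few multiples above it (medians 4.30 and 3.65), and circles mark the 10 regions with the highest lower within-list percentile.

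At the edge of the rule, a region near Gpr12 (chr5:146655559-146655891) was inside with 16 and 18 read ends in WT replicates 1 and 2 and −log10 q of 2.46 and 1.36. A region in a coding exon of Herc2 (chr7:56106309-56106729) was outside because KO replicate 1 held a peak of 16 read ends at −log10 q of 1.33, beside 19 and 27 read ends in the WT libraries. The peak lists end at −log10 q of about 1.3, a q-value of 0.05. Regions with both WT peaks and exactly 1 KO peak numbered 4551, and in 77 of these the KO peak was under −log10 q of 2. Conversely, 66 WT-only regions (3.92%) had a WT peak under 2.

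The summits of the WT peaks lay close together in most WT-only regions. The median distance between the summits of WT replicates 1 and 2 was 73 bp, against 64 bp between the KO summits of KO-only regions. It was at most 50 bp in 633 WT-only regions (37.6%) and over 300 bp in 93 (5.52%). The nearest peak of either KO library was a median of 5.40 kb away (interquartile range 2.37 to 12.3 kb). It was within 1 kb for 192 WT-only regions (11.4%) and beyond 50 kb for 58 (3.44%). From KO-only regions to the nearest WT peak, the median was 5.37 kb, with 246 regions (13.4%) within 1 kb and 97 (5.29%) beyond 50 kb.

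The region with the highest lower percentile lay between coding genes, 61.3 kb from the start of Rell1, a relative of the TNF receptor family member RELT (chr5:64030231-64031157). It reached 39 read ends in WT replicate 1 and 48 in WT replicate 2, or 8.83 and 7.01 times background, with summits 4 bp apart. Of the 1684 regions it was the only one above percentile 75 in both lists, at 92.4 and 90.0. Repeat-masked bases made up 68.2% of the 201 bases around its summit. The 31 bases at the summit had 1 exact copy in the autosomes, a count that leaves out inexact copies and other chromosomes. A GC-rich region (75.6% GC) followed, 95.3 kb from 5730507C01Rik (chr12:18609820-18610491), with 27 and 41 read ends. The third lay 239.1 kb from Podxl, which encodes the sialomucin podocalyxin of podocytes and vascular endothelium (chr6:31803089-31803781), with 26 and 47 read ends. Its window was wholly repeat-masked, and the 31 bases at its summit occurred 41 times in the autosomes. The fourth lay 154.5 kb from Syndig1, a synaptic partner of AMPA receptors (chr2:149675564-149676280), with 29 and 33 read ends and a window of 35.3% GC.

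Among the other members of this top 10, an intronic region of Zbtb20, a zinc-finger repressor of hippocampal and astrocyte development (chr16:43557276-43557890), had 27 and 31 read ends and summits 6 bp apart. A region in a noncoding exon part of Tmem156 (chr5:65071733-65072216) had 23 and 35. A region 708.1 kb from Vgll3, a TEAD cofactor (chr16:66523690-66523924), had 24 and 30 read ends, but its 31 summit bases occurred 4995 times in the autosomes, so its reads cannot be placed by those bases alone. Of these 10 regions 8 lay between coding genes, 3 were on chromosome 5 and 3 on chromosome 12, and 2 had a repeated summit sequence. Over the whole set, the 31 summit bases occurred more than once in 69 WT-only regions (4.10%, Wilson 95% interval 3.25 to 5.15%). The share was 6.22% of KO-only regions, 2.74% of regions of all 4 libraries and 3.27% of all regions outside promoters.

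Ranking by height alone brought up other regions, and none was in both groups of 10. These lay close to genes and beside other peaks. All 10 were within 6 kb of a coding start and 5 were in a coding exon, and each had a KO peak within 3.2 kb. The highest was in a coding exon of Chpf, a chondroitin polymerizing factor (chr1:75477305-75477865), with 50 read ends in WT replicate 1 and 66 in WT replicate 2, but its fold over the local background was only 2.73 and 2.48 and the nearest KO peak was 0.828 kb away. Exonic regions of Dpf1, a neuronal BAF complex subunit (chr7:29313152-29313367), and of Spry2, a feedback inhibitor of receptor tyrosine kinase signalling (chr14:105893240-105893714), had 41 and 64 and then 44 and 60 read ends. An intronic region of Arid1a, another BAF complex subunit (chr4:133751639-133751899), had 41 and 59.

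By place in the gene annotation, WT-only regions held 909 intronic regions (54.0%, Wilson 95% interval 51.6 to 56.3%), against 42.9% (40.7 to 45.2%) of KO-only regions and 44.7% of regions of all 4 libraries. The space between coding genes held 37.4% of them (35.1 to 39.7%), against 50.3% and 45.8%. Over all 103889 regions outside promoters 47.2% were intronic and 44.9% lay between coding genes. Coding exons held 111 (6.59%), against 5.07% and 7.85%, and exons outside the coding sequence 34 (2.02%), against 1.74% and 1.65%. The difference in introns was smaller when the sets were called anew from stronger peaks. With only peaks at −log10 q of 5 or more, weaker KO peaks no longer counted, and 1367 regions were WT-only. Only 282 of the 1684 were still WT-only. Of the 1367 regions 46.5% were intronic (43.8 to 49.1%), against 41.9% (39.2 to 44.6%) of KO-only regions and 42.0% of regions of all 4 libraries. Equal numbers of peaks per library gave 1733 WT-only regions, with 382 of the 1684 still WT-only. Their intronic share was 51.4%, against 42.1% and 43.0%. Motif shares at these settings are likewise those of sets called anew. Without KO replicate 2, where a KO peak was required in KO replicate 1 alone, the intronic share was 51.6% in WT-only regions, against 49.7% in KO-only regions and 45.7% in regions of all remaining libraries. All intervals cover counting error only, and regions of a library are not replicates of a genotype.

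**Figure D2:**
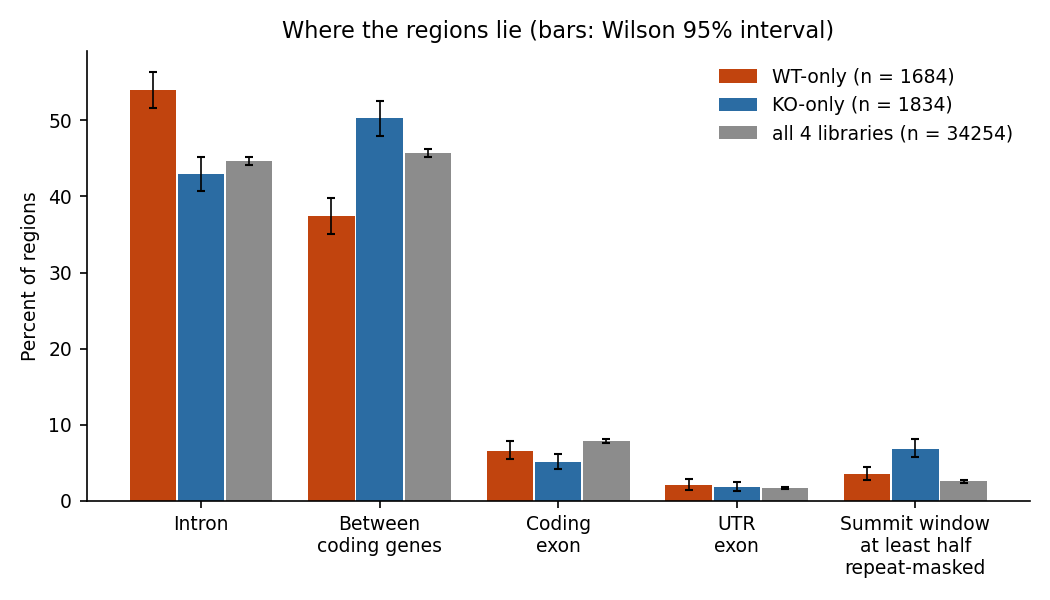
Share of regions (percent, y axis) by place in the protein-coding annotation and by repeat content (x axis), for WT-only, KO-only and all-4-library regions, with Wilson 95% intervals. WT-only regions stand at 54.0% in introns and 37.4% between coding genes, against 42.9% and 50.3% of KO-only regions.

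The regions were narrow and of ordinary base composition. Their median width was 406 bp, against 391 bp for KO-only regions and 766 bp for regions of all 4 libraries. Median GC in the 201 bases around the summit was 48.3%, against 46.3% and 49.3%. At least 50% of that window was repeat-masked in 58 WT-only regions (3.44%, 2.67 to 4.43%), against 6.82% of KO-only regions and 2.52% of regions of all 4 libraries. Median distance to the nearest coding start was 44.3 kb, against 52.0 and 41.0 kb, and 53.6% of WT-only regions lay within 50 kb of one, against 48.6% and 55.6%. Promoters of long noncoding RNA genes, taken as 1 kb on either side of their starts, overlapped 43 WT-only regions (2.55%), against 2.24% and 4.36%.

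Sequence motifs were counted within 100 bp of the summit on both strands, and each share is given beside that over windows of equal length in the other sets. The E-boxes CATATG and CAGATG were less frequent in WT-only regions than in the sets beside them. CATATG, which OLIG and NEUROD factors bind, was in 70 WT-only windows (4.16%, 3.30 to 5.22%), against 12.6% of KO-only windows, 6.09% of those of all 4 libraries and 6.44% of those of any library. CAGATG, a further E-box of these factors, was in 309 (18.3%), against 30.04%, 25.3% and 24.3%. Both shares were lower than those of KO-only and all-library regions under the 5 other settings of filtering and merging and with each library left out in turn. Without KO replicate 1, where a KO peak was required in KO replicate 2 alone, CATATG was in 3.46% of WT-only, 6.34% of KO-only and 5.87% of regions of all remaining libraries. In the sets called anew at −log10 q of 5 or more the shares of CATATG were 3.58%, 13.3% and 6.09%. Those of CAGATG were 20.8%, 31.6% and 25.4%. Base composition was followed by splitting windows by GC. At 35 to 45% GC, CATATG was in 6.04% of WT-only, 18.9% of KO-only and 9.73% of all-4-library windows, and at 45 to 55% GC in 3.56%, 7.57% and 5.66%. At 55 to 65% GC the WT-only share of 2.37% lay between the KO-only share of 4.53% and the 2.03% of all 4 libraries. The windows printed above from St8sia6, near Fscb and from Arhgap15 show the CATATG match within 10 bp of the summit.

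The CACCTG E-box, which ZEB and SNAI repressors and class I helix-loop-helix factors bind, went the other way. It was in 237 WT-only windows (14.1%, 12.5 to 15.8%), against 9.65% of KO-only windows, 11.6% of those of all 4 libraries and 11.4% of those of any library. In the sets called anew at −log10 q of 5 or more the shares were 14.1%, 9.62% and 11.3%. The excess over all-library regions depended on a library. Without WT replicate 2, where a peak in WT replicate 1 was enough, CACCTG was in 11.75% of WT-only regions. The shares of KO-only regions and of all remaining libraries were then 9.58% and 11.73%. Without WT replicate 1 the shares were 12.3%, 10.2% and 11.1%. With all libraries, the shares at 35 to 45% GC were 7.41%, 6.64% and 6.33%. At 45 to 55% GC they were 16.6%, 11.1% and 11.97%, and at 55 to 65% GC 21.3%, 14.3% and 18.9%. CAGCTG, a further E-box, was in 16.4% of WT-only, 20.01% of KO-only, 17.7% of all-4-library and 17.0% of any-library windows. CACGTG, the E-box of MYC with MAX, was in 2.91%, 2.24%, 3.85% and 3.43%.

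**Figure D3:**
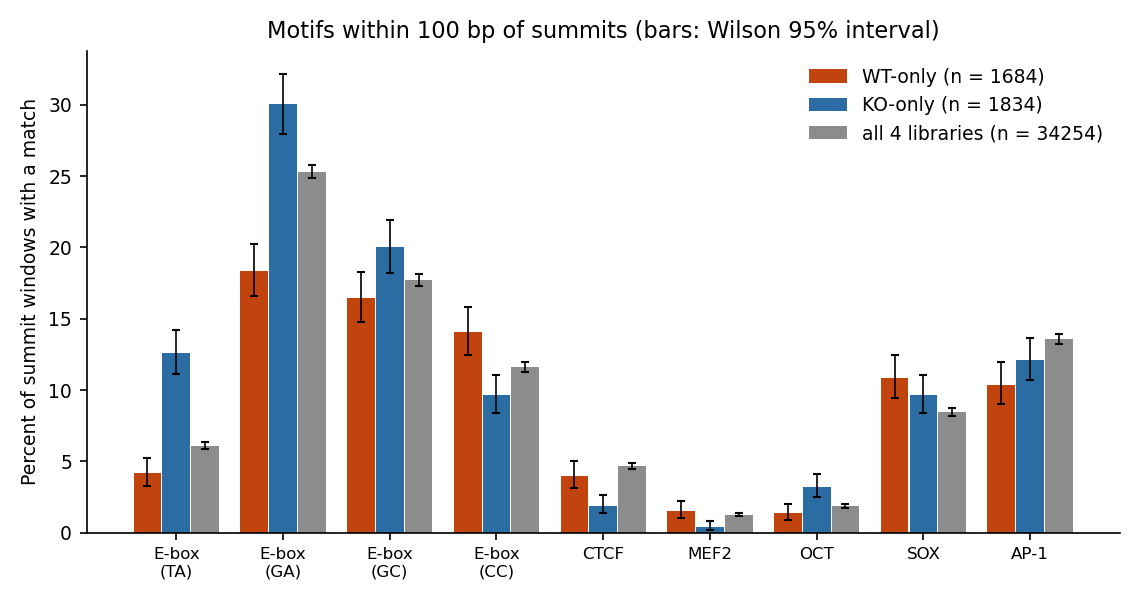
Share of summit windows (percent, y axis) that hold each motif (x axis) in WT-only, KO-only and all-4-library regions, with Wilson 95% intervals. E-boxes are named by their central bases, so TA is the one of OLIG and NEUROD factors, at 4.16% of WT-only and 12.6% of KO-only windows, and CC is the one at 14.1% and 9.65%.

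CTCF matches were in 67 WT-only windows (3.98%, 3.15 to 5.02%), against 1.91% of KO-only windows (1.38 to 2.64%), 4.67% of all-4-library windows and 2.89% of windows of any library. In the sets called anew at −log10 q of 5 or more the shares were 5.71%, 2.16% and 4.46%. This order depended on a library: without WT replicate 1, where a WT peak was required in WT replicate 2 alone, CTCF matches were in 1.61% of WT-only, 2.89% of KO-only and 3.70% of regions of all remaining libraries. Fewer of the WT-only regions with a CTCF match were intronic (35.8%) than of the set as a whole. Windows of this kind included an intron of Kcnip1, which encodes a potassium channel interacting protein (20 read ends in WT replicate 1 and 25 in WT replicate 2), and an intron of Arhgap40, a GTPase activating protein (21 and 24). Others lay 20.3 kb from Serpina3n, a serine protease inhibitor of reactive astrocytes (18 and 24), and 32.5 kb from Erc2, a presynaptic active zone protein (18 and 33).

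MEF2 matches were in 26 WT-only windows (1.54%, 1.06 to 2.25%), against 8 KO-only windows (0.436%, 0.221 to 0.858%), 1.26% of all-4-library windows and 1.16% of windows of any library. Without WT replicate 2, where a WT peak was required in WT replicate 1 alone, the shares were 1.11% of WT-only, 1.05% of KO-only and 1.25% of regions of all remaining libraries. Of the 26 MEF2 matches 13 lay within 30 bp of the summit, against 38.0% of those in all-4-library windows and 35.3% in windows of any library. With so few matches this is a description only. Of CTCF matches 20.9% were that close, against 19.3%, and most lay 20 to 60 bp away. Among the strongest regions with a MEF2 match were those in an intron of Pou2f1, which encodes the octamer factor OCT1 (22 read ends in WT replicate 1 and 28 in WT replicate 2), 40.3 kb from Copb1, a coatomer subunit (20 and 27), and in an intron of Zfp609, a zinc-finger protein that acts with cohesin loaders in neural progenitors (21 and 29).

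**Figure D4:**
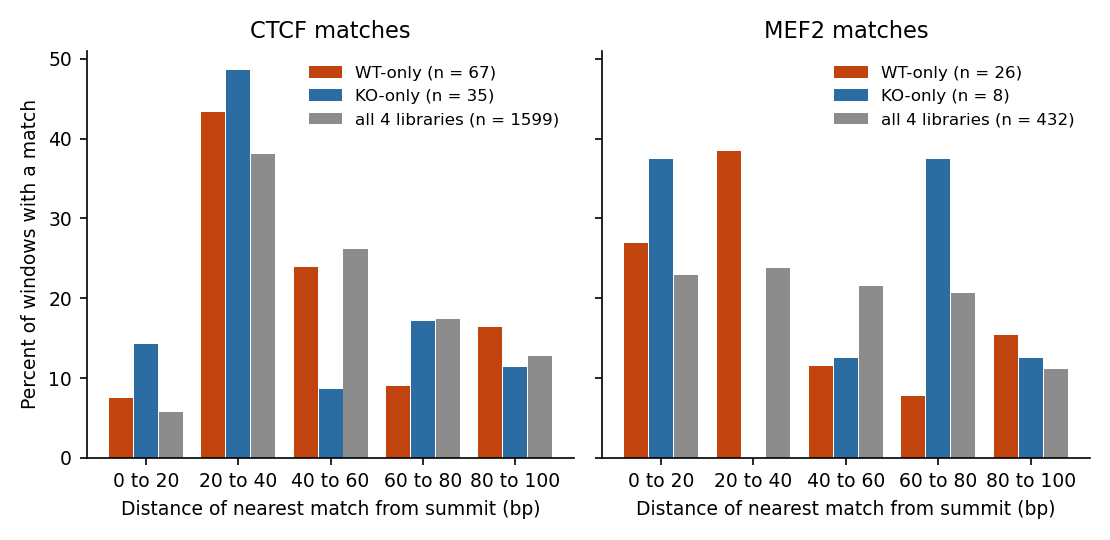
Distance of the nearest CTCF (left) or MEF2 (right) match from the summit (x axis, bp) as a percent of windows with a match (y axis), in WT-only, KO-only and all-4-library regions. In WT-only windows 43.3% of CTCF matches lay 20 to 40 bp from the summit and 26.9% of MEF2 matches within 20 bp, and the MEF2 bars rest on 26 WT-only and 8 KO-only windows.

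The octamer ATGCAAAT of POU factors was in 23 WT-only windows (1.37%), against 3.22% of KO-only and 1.88% of all-4-library windows. The AP-1 site TGANTCA was in 175 (10.4%, 9.02 to 11.9%), against 12.1%, 13.6% and 13.4% of windows of any library. The SOX site CATTGT was in 10.9% (9.47 to 12.4%), against 9.65%, 8.47% and 9.73%. At 35 to 45% GC the SOX shares were 12.5% of WT-only, 12.2% of KO-only, 10.9% of all-4-library and 11.7% of any-library windows. At 45 to 55% GC they were 11.3%, 8.78%, 8.58% and 9.49%. ETS sites were in 1 WT-only window. None of the 26 motifs was found in 24.9% of WT-only windows, against 19.03% of KO-only and 22.6% of all-4-library windows. A match is a stretch of letters and no evidence that the factor was bound.

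**Figure D5:**
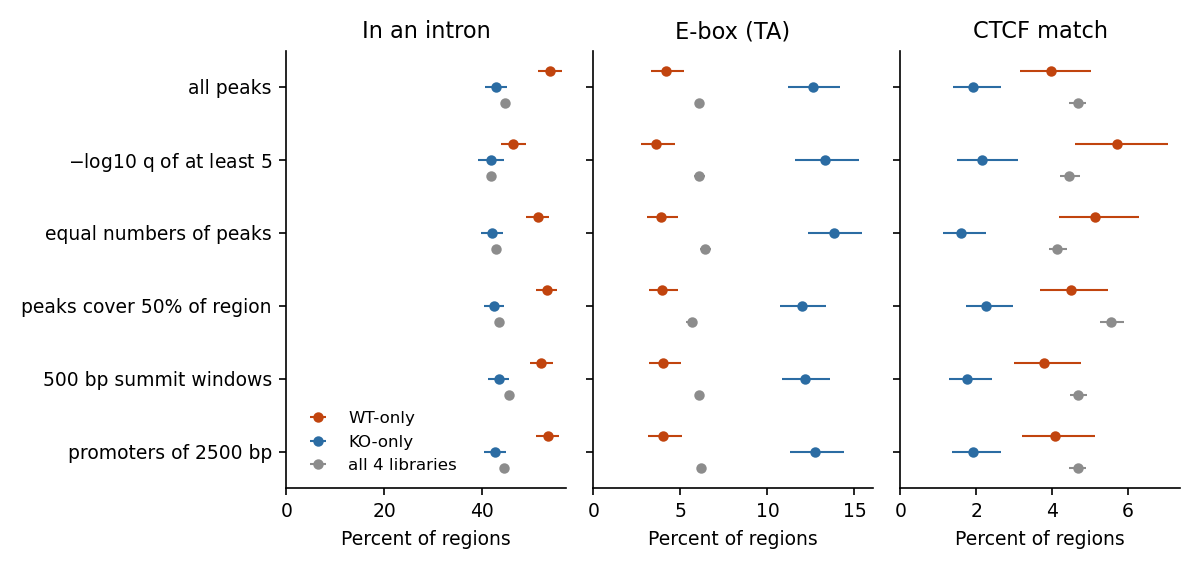
Share of regions (x axis, percent) that were intronic, held the TA E-box or held a CTCF match, under 6 settings (y axis), for WT-only, KO-only and all-4-library regions with Wilson 95% intervals. Each setting calls the sets anew, so its WT-only regions are not only those of the main set. The intronic share of WT-only regions was 46.5% at −log10 q of 5 or more and 54.0% with all peaks, while the E-box stayed between 3.58% and 4.16%.

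WT-only regions were scattered over the genome. Of 1208 bins of 2 Mb that held a region, 808 held a WT-only region and 29 held 5 or more, against 39 bins with 5 or more KO-only regions. Neighbouring WT-only regions were a median of 809.6 kb apart, and 21 pairs were within 10 kb. The fullest bin was on chromosome 14 from 68 to 70 Mb, with 8 WT-only regions of 101 and 1 KO-only region. Its members ran from Slc25a37, the mitochondrial iron importer mitoferrin, past Entpd4 and Entpd4b, related ectonucleotidase genes between which reads may be shared, to Loxl2, a lysyl oxidase that crosslinks collagen. A member between these lay in an intron of Gm16867. Whether reads are also shared among other members of this bin was not tested. The intronic Loxl2 region (chr14:69685968-69686752) had 21 read ends in WT replicate 1 and 35 in WT replicate 2, and one 21.8 kb from the nearest Loxl2 start (chr14:69586831-69587262) had 27 and 45. A bin on chromosome 16 from 66 to 68 Mb held 6 of 70, with 5 in Cadm2, and no KO-only region.

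Of 21951 coding genes, 920 had a WT-only region in their body, 821 had a KO-only region, and 174 had both. The number of coding genes with any region outside promoters is not given here, so these counts have no base share. WT-only regions were also more often intronic (54.0%) than KO-only ones (42.9%). With 3 or more WT-only regions there were 31 genes, against 16 with 3 or more KO-only regions. Of these 31 genes 17 held no KO-only region, but they were picked for their WT-only count, so this is a description. Overlapping gene models count the same regions again. Pde2a and Gm45837, both among the 17, share the same 3 WT-only regions, and Foxp1 and Gm20696 share another 3. The 28 genes with exactly 3 are given by a selection made after their values were seen. Cadm2, a synaptic cell adhesion molecule, held 5 of 61 regions and no KO-only one. They were at 21 and 31, 24 and 29, 15 and 23, 22 and 20, and 24 and 23 read ends in WT replicates 1 and 2, with 1 in a coding exon and the others intronic, over the far part of a gene of 965.5 kb. Ptprd, a receptor tyrosine phosphatase that organizes synapses, held 5 of 104, all intronic, and no KO-only one. Its peaks were at 22 and 20, 17 and 21, 19 and 19, 15 and 20, and 21 and 28 read ends. Over all regions outside promoters 1.62% were WT-only and 1.77% KO-only. At that share few KO-only regions would fall among 61 or 104, so their absence from these genes is no finding. Gm20388, a model of 4435 kb that spans many genes, held 5 of 409, with 12 KO-only.

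Shorter genes with several WT-only regions included Tet1, a dioxygenase that oxidizes 5-methylcytosine, with 3 of 7 regions, all intronic. These had 16 and 26, 24 and 22, and 19 and 21 read ends in WT replicates 1 and 2. Abi1, a subunit of the WAVE actin regulator, held 3 of 10, at 16 and 23, 18 and 20, and 25 and 38 read ends. Ntrk2, the BDNF receptor TrkB, held 3 of 41, at 24 and 29, 17 and 35, and 16 and 31. Further genes with 3 were the adhesion gene Dscam, the matrix gene Tnr, the reelin adaptor Dab1 and Hdac4, a deacetylase that binds MEF2 factors. Of these only Tnr, with 1, held a KO-only region. The genes named lean to those without one, which were 17 of the 31.

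Genes of 16 lists were linked to a region that lay in the gene body or within 50 kb of a coding start. Against the 1.62% of all regions outside promoters that were WT-only, the shares per list ran from 0% to 2.29%, and every list's interval included 1.62%. Neuronal and synaptic genes had 16 WT-only of 1220 linked regions (1.31%) and 16 KO-only ones. The strongest by percentile lay 20.2 kb from Cntnap2, an axonal neurexin relative (21 read ends in WT replicate 1 and 23 in WT replicate 2), and in introns of Dscam (29 and 22) and of Syt1, the synaptic vesicle calcium sensor (27 and 39). Oligodendrocyte precursor and proneural genes had 4 of 206 (1.94%), against 9 KO-only. These were an intronic region of Luzp2 (18 and 21) and 3 intronic regions of Tnr, which encodes the matrix protein tenascin-R (16 and 32, 17 and 30, 15 and 26).

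Axon guidance and migration genes had 13 of 607 (2.14%), against 9 KO-only. Among them were introns of the ephrin receptors Epha4 (22 and 25 read ends in WT replicates 1 and 2) and Ephb1 (19 and 22), and of the netrin receptor Unc5d (17 and 27). Matrix and adhesion genes had 7 of 356 (1.97%), with 2 in Cdh13, a membrane-anchored cadherin (25 and 26, 18 and 27), and 1 each in an intron of Col4a1, linked also to Col4a2, both basement membrane collagen genes (18 and 23), and in Fn1, fibronectin (17 and 21). SOX and POU factor genes had 4 of 175, among them the Pou2f1 region with the MEF2 match and an intron of Sox5 (21 and 33). Genes of PDGF receptor signalling had 4 of 206 and 4 KO-only, in or near Pik3r1 (20 and 34) and Pik3ca (20 and 22), subunits of PI3 kinase, in Spry2, and in an intron of Adssl1 that was linked to the kinase gene Akt1 (31 and 44).

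Astrocyte genes had 3 of 174, against 6 KO-only, with 2 at the glutamate transporter gene Slc1a2 (24 and 32, 32 and 31 read ends in WT replicates 1 and 2) and 1 near Glul, glutamine synthetase (18 and 21). Mature oligodendrocyte genes had 2 of 125 and no KO-only region. These lay in an intron of Dnajc7, linked to the myelin gene Cnp (15 and 19), and in a coding exon of Gabbr1, linked to the myelin gene Mog (27 and 40). Promoters of that list were open for 14 of 16 genes in WT replicate 1 against 8 or 9 in the other libraries, and its part in these calls was not tested. Mesenchymal and hypoxia genes had 2 of 132, 1 near Vegfa, the endothelial growth factor gene (18 and 24), and 1 in a coding exon of Cavin1 that was linked to Stat3 (19 and 24). The endothelial list had 1 of 142, in an intron of Ak1 and linked to Eng, a TGF-beta co-receptor gene (28 and 32). The mural list had 1 of 81. Microglial genes had 0 of 119 (Wilson upper bound 3.13%) and T and NK cell genes 0 of 68 (5.35%). Pdgfra had 2 linked regions, none of them WT-only and 1 KO-only, and Myc and Esm1 lie in the segments left out.

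Few WT-only regions kept the call under all settings. With peaks at −log10 q of 5 or more in every library, 282 of 1684 (16.7%) were still WT-only, and with the 63000 strongest peaks of each library 382 (22.7%). With peaks required to cover 50% of the merged region 1369 stayed (81.3%), with 500 bp windows around summits 1660, and with promoters widened to 2500 bp 1646. All 5 kept 138 regions (8.19%), among them all 10 with the highest lower percentile, but only those of Trp53inp2 and Fcho1 among the 10 highest by height. WT-only regions hold no KO peak, so the q and list-size filters could drop them only through weak WT peaks. The 10 by percentile were picked for high fold in both WT lists, so their passing these filters restates that choice. Of the 138 regions 42.8% were intronic (34.8 to 51.1%), 2.17% held the CATATG E-box, 21.7% CAGATG, 9.42% CACCTG (5.59 to 15.5%), 2.90% a CTCF match and 3.62% a MEF2 match (1.56 to 8.20%). The intronic share of the full set, 54.0%, lies above the intronic interval of the 138 regions. Its CACCTG share of 14.1% lies inside the CACCTG interval, as do the 9.65% of KO-only and 11.6% of all-4-library regions.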

How the data were processed

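The authors deposited 1 narrowPeak list per library, and the labels describe separate tumors. Per the labels' processing notes, MACS2, HOMER and mm10 were used. The study's methods name Bowtie2, Genrich and GRCm38 instead, and the columns follow MACS2 arithmetic. For each peak the deposited lists give the ratio of its pileup to the local background (the fold), the −log10 of its p-value and q-value, and a summit offset. The files give no read totals. Heights were recovered as the whole number of read ends that gave the deposited fold and p-value within 0.001 on the −log10 scale, in all but 2 peaks. The lowest local background of a list was taken as its genome background.

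Peaks were merged at 1 bp. Gene models came from GENCODE M21 basic, with 21951 protein-coding genes and 41538 starts. Motifs were scanned in 201 bases of GRCm38.p6. Intervals are Wilson 95% intervals and cover counting error only. No test was run. Members, lists and motifs were chosen with earlier results of these data known. Named regions were the 10 highest by the lower within-list percentile, the 10 by height over background, those of up to 10 host genes with most members, up to 4 per gene list and the strongest per motif discussed, of which the text gives a selection. The alternatives were a q filter, equal list sizes, a cover minimum, summit windows, wider promoters, each library left out, and, chosen after seeing the data, the starts of the comprehensive annotation. The summit copy counts were also chosen after seeing the data. Functions were tested on simulated data. Python 3.11.15, numpy 2.4.6, pandas 2.3.3 and scipy 1.17.1 were used.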

Additional observations from a re-analysis of the deposited data

How the results depend on the processing

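A WT-only call rests on 2 tumors per genotype, with a called peak in both WT libraries and none in either KO library. Depth and the call threshold can set both. The shallowest library, WT replicate 1, bears on a peak's presence for WT-only calls and on its absence for KO-only calls. Leaving out a library loosens the rule, since 1 peak or 1 absence is then enough. Over the 4 settings that each leave out 1 library, WT-only regions numbered 3327 to 18290 and KO-only regions 2418 to 16084, and the intronic share was 51.2 to 54.998%. The share within 50 kb of a coding start was 50.8 to 58.0%, that with CATATG 3.16 to 5.63% and that with CTCF 1.61 to 5.83%, with median GC of 45.8 to 49.3%. The highest WT-only count and the lowest CTCF share were without WT replicate 1. Called anew at −log10 q of 5 or more, there were 1367 WT-only regions. Of these 46.5% were intronic, 5.71% held CTCF and median GC was 48.8%, against 54.0%, 3.98% and 48.3% with all peaks. With equal numbers of peaks there were 1733, of which 51.4% were intronic and 5.14% held CTCF. Promoters of 2500 bp gave a median GC of 47.8%, as did the starts of the comprehensive annotation, a setting chosen after seeing the data. The cause of these shifts was not tested. The number of WT-only regions stayed within 1.5 times of 1684 under the other 6 settings, but only 282 of these regions kept the call at −log10 q of 5 or more. No paired analysis was possible because no comparison came from a test and the tumors of equal number share no animal.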
